A study of Mus musculus with 21 samples.

Results

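Interleukin 6 (IL-6) and tumour necrosis factor (TNF) reach hepatocytes through cell-surface receptors, and 8 genes of these 2 pathways are described here: Il6ra, Il6st, Lifr, Osmr, Tnfrsf1a, Jak1, Stat3 and Socs3. They are 8 of 21887 protein-coding genes, chosen by symbol and not by a threshold on their peaks. Each gene was taken as its RefSeq gene body in mouse build mm10 (assembly GRCm38.p6) with 25 kb on each side, called its window, and the 8 windows do not overlap each other. Peaks in each window were listed by position and their presence was compared between genotypes.

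The peaks come from chromatin immunoprecipitation with sequencing (ChIP-seq), which recovers the DNA bound by a protein or carrying a histone mark, in primary hepatocytes perfused from mouse liver. There were 2 WT and 2 KO libraries for C/EBPα, a transcription factor of differentiated hepatocytes, and 3 WT and 3 KO libraries for H3K4me2, histone H3 dimethylated on lysine 4, a mark of promoters and enhancers. One further library recovered V5-tagged ARID1A, which belongs to the nucleosome remodeller SWI/SNF, from V5-Arid1a mice, with no replicate. The comparison asks where C/EBPα and H3K4me2 sit with and without ARID1A in the liver. All mice were a C57/B6 and 129 mix at postnatal day 90. WT mice were Arid1a Fl/Fl with no Cre, so both genotypes carry the floxed alleles, and KO mice were Arid1a Fl/Fl; Alb-cre, in which the albumin promoter drives Cre recombinase. The albumin promoter is a hepatocyte promoter, so the deletion is aimed at hepatocytes, and no label says whether libraries of a genotype came from separate animals.

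IL-6 binds its receptor chain IL-6Rα, which pairs with gp130. The Janus kinases bound to gp130 then phosphorylate STAT3, which enters the nucleus and switches on acute phase genes together with C/EBP factors, as well as Socs3, whose product blocks the same receptor. TNF acts through TNF receptor 1 and NF-κB, and in liver both cytokines come largely from macrophages and act on hepatocytes in inflammation and regeneration.

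The libraries also differed within a genotype. C/EBPα lists held 16178 to 23646 peaks, with WT library 2 the longest. H3K4me2 lists held 24908 peaks in KO library 1 and 175797 short, weak peaks in KO library 3. The median −log10 q was 1.14 in KO library 3, against 2.80 and 3.56 in KO libraries 1 and 2 and 2.42 to 4.75 in the WT lists. WT library 2 and KO library 2 covered 91.9 and 85.6 Mb, against 28.0 Mb in KO library 1. The genotype itself could not be checked, since peak lists do not show a deleted gene. Of 10 hepatocyte markers, 10 had H3K4me2 within 1 kb of a gene end in all 6 lists and 6 had C/EBPα there in all 4. Of 7 markers of Kupffer cells and other macrophages, 0 had C/EBPα there in any list, 0 had H3K4me2 in all 6 lists and 5 had none in any. The 6 endothelial markers had 0 C/EBPα, and 2, 6 and 2 of them had H3K4me2 in WT libraries 1 to 3 and 0, 6 and 2 in KO libraries 1 to 3. For stellate cells 1 of 6 markers, for biliary cells 1 of 5 and for lymphocytes 1 of 5 had H3K4me2 in all 6 lists, and 2, 1 and 3 of them had none in any. C/EBPα lay at 1 biliary marker in WT library 2 and at 0 stellate and 0 lymphocyte markers. The part of these other cells in the values below was not tested. Throughout, H3K4me2 is said to touch a C/EBPα region or ARID1A peak that shares at least 1 bp with a peak of that list.

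The 8 windows held 34 C/EBPα regions, a region being the stretch left when overlapping peaks of the 4 lists are merged. Kept regions, with a peak in all 4 lists, numbered 19 of 34 (55.9%), beside 42.8% of all regions in the genome. Lost regions, found in both WT lists but in neither KO list, numbered 3 of the 27 present in both WT lists (11.1%), beside 19.3% genome-wide. Gained regions, the reverse, numbered 0 of the 21 present in both KO lists, beside 5.27%. The remaining 12 were mixed within a genotype. The 3 lost regions lay in 2 of the 8 windows, 1 at Jak1 and 2 at Socs3, beside 12.3% of all gene windows with 1 or more. That share includes windows without any C/EBPα region, which can have no lost one, while each of the 8 windows held 1 or more regions. Without WT library 1 the lost count was 7 of 34, without KO library 1 it was 5 of 27 and without KO library 2 it was 6 of 27. Leaving a list out only loosens the rule, so the original 3 lost regions are among them by construction and the count could not fall. Genome-wide the lost share in these settings was 30.1%, 22.8% and 25.8%. Without WT library 2 the gained count was 2 of 21, 1 each at Il6ra and Lifr, beside 16.6% genome-wide.

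A missing peak in these lists is a weak statement. The C/EBPα and V5 lists were shortened before deposit: their peak numbers run with gaps, and about 40% of the numbers are present in each. At all 27 places where a region near the 8 genes lacks a peak in some list, 1 or more numbers are missing between the neighbouring peaks of that list, as they are in both KO lists at 92.2% of 3176 lost regions genome-wide. A peak called and then removed therefore cannot be told apart from no peak. Nor can fewer cells with a bound site be told apart from less binding per cell.

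**Figure D1:**
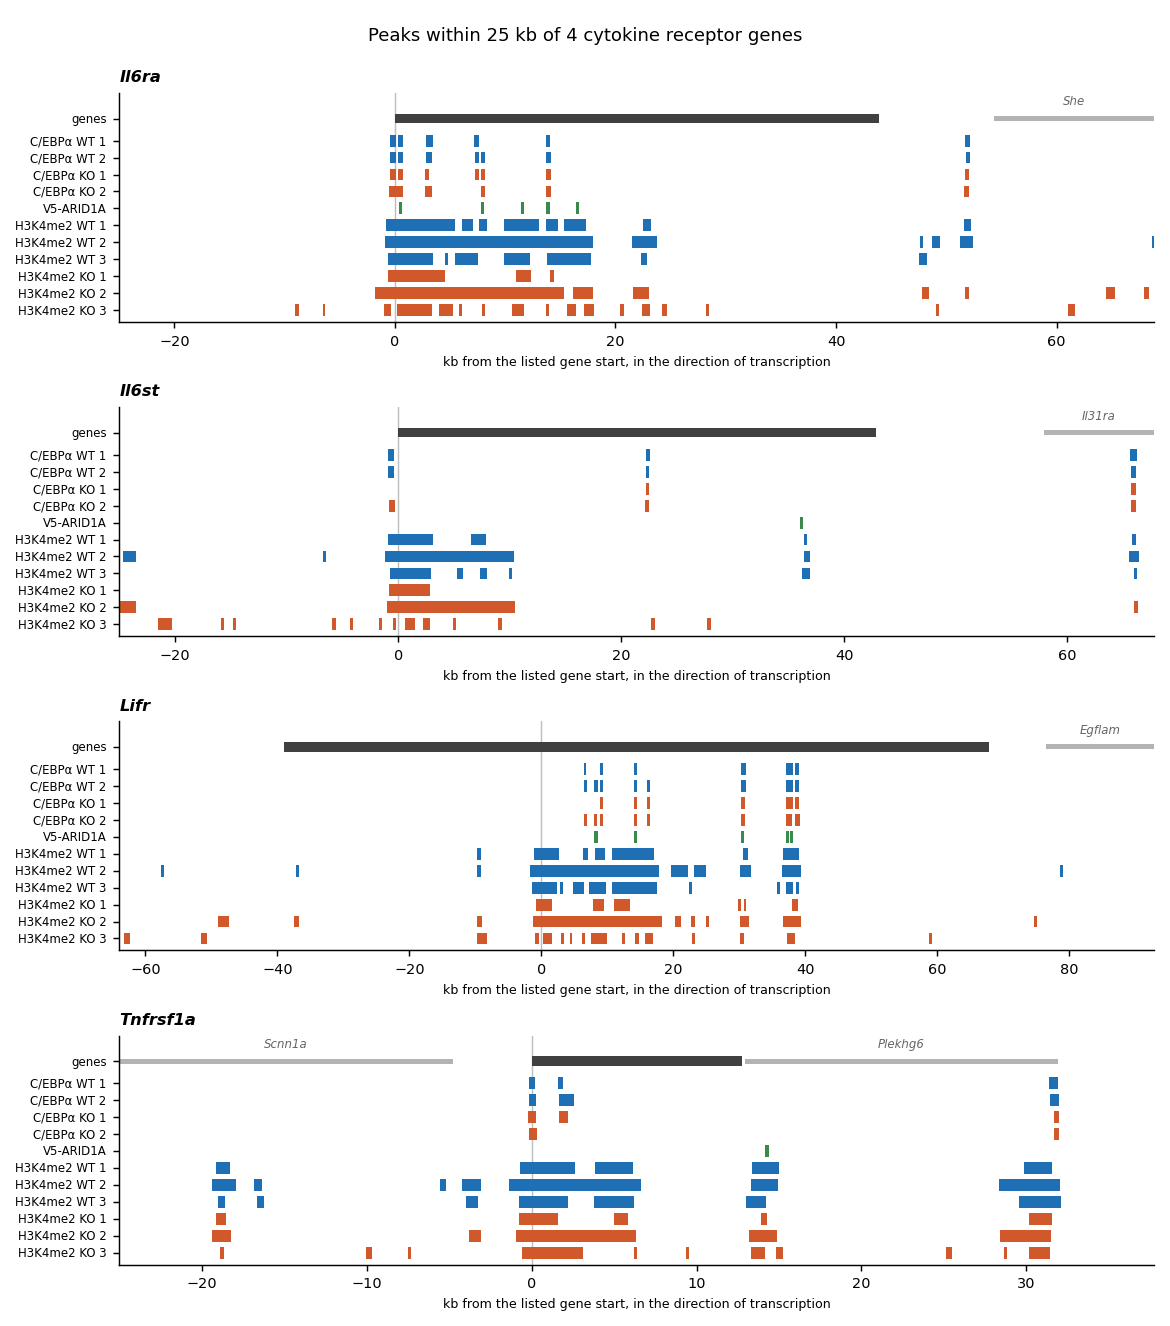
Peaks in the windows of Il6ra, Il6st, Lifr and Tnfrsf1a, with 1 row for each of the 11 lists (blue WT, orange KO, green V5-ARID1A) against distance in kb from the listed gene start in the direction of transcription. Dark bars are the genes and grey bars their neighbours, and the C/EBPα marks at the starts of Il6ra and Tnfrsf1a appear in all 4 lists.

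Il6ra encodes the IL-6 receptor chain that binds the cytokine (chromosome 3, 89869324 to 89913196, minus strand). C/EBPα peaks in its window numbered 6 and 7 in the WT libraries and 7 and 6 in the KO libraries, so the genotypes overlapped, with a mean difference of 0 (exact permutation p = 1.0). They formed 7 regions, 5 kept and 2 mixed, and 6 of the 7 lay inside the gene. The kept region over the start (89913041 to 89913715) had peaks 540, 546, 615 and 675 bp wide in WT libraries 1 and 2 and KO libraries 1 and 2. Within a list, where width is the only measure of a C/EBPα peak, these were at percentiles 84.2, 83.8, 83.9 and 90.0. A second kept region 213 bp downstream of the start carried an ARID1A peak (89912556 to 89912857), and ARID1A peaks also lay 7850, 11471, 13707 and 16449 bp into the gene. That makes 5 ARID1A peaks in the window.

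The promoter of Il6ra lies wholly inside the C/EBPα peak of every one of the 4 lists, so its sequence is shown. It is the 250 bases upstream of the listed start from RefSeq (GRCm38.p6, chr3:89913197-89913446, minus strand), 5′ to 3′, with matches to the C/EBP motif TTNNGNAA on either strand in capitals.
Il6ra promoter: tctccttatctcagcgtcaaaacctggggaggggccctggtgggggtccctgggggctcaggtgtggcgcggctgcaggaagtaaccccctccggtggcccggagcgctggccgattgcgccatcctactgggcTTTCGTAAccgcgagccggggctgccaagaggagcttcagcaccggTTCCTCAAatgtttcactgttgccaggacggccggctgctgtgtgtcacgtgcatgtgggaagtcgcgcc
Of 32851 mouse promoters of that length, 36.8% hold such a match, so the 2 in Il6ra are a description only. The matches begin 116 and 70 bases before the start.

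Il6st encodes gp130, the signalling chain shared by the receptors for IL-6, leukaemia inhibitory factor and oncostatin M (chromosome 13, 112464070 to 112506860, plus strand). Its window held 3 and 3 C/EBPα peaks in the WT libraries and 2 and 3 in KO. The mean difference of -0.50 peaks was smaller than the spread within KO (exact permutation p = 1.0). The missing peak belongs to the region 314 bp upstream of the start (112463204 to 112463756), which was absent in KO library 1 and 498, 540 and 516 bp wide in the other lists. A kept region 22126 bp into the gene (112486196 to 112486618) was the 1 region of 34 that no H3K4me2 list touched. The other kept region lay inside the neighbouring gene Il31ra, 22827 bp beyond Il6st. The single ARID1A peak (112500106 to 112500315) was on no C/EBPα region, and 1 of the 6 H3K4me2 lists, WT library 3, touched it.

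Lifr encodes the receptor for leukaemia inhibitory factor, which pairs with gp130 (chromosome 15, 7090610 to 7197489, plus strand, with 2 listed starts). C/EBPα peaks numbered 6 and 8 in WT and 6 and 8 in KO, a mean difference of 0 (exact permutation p = 1.0). All 8 regions lay inside the gene, 5 kept and 3 mixed, and 0 lay within 1 kb of a listed start. The widest C/EBPα region near any of the 8 genes was here, 37061 bp from the first listed start (7166633 to 7167668), with peaks of 922, 1015, 959 and 1000 bp at percentiles 98.7, 99.0, 97.4 and 98.2. It carried 2 of the 5 ARID1A peaks of the window, and a kept region lay just beyond it at 7167949 to 7168849. All 5 ARID1A peaks of Lifr lay on a C/EBPα region.

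Osmr encodes the oncostatin M receptor chain that pairs with gp130 (chromosome 15, 6813568 to 6874968, minus strand). Its window held 0 and 1 C/EBPα peaks in the WT libraries and 0 and 0 in KO, and 0 ARID1A peaks. The 1 peak, in WT library 2, lay 17455 bp upstream of the start (6891768 to 6892298). Listed C/EBPα peaks were thus nearly absent from the window in both genotypes (mean difference -0.50, exact permutation p = 1.0). Between the neighbouring peaks, WT library 1 and KO libraries 1 and 2 lack 4, 6 and 4 peak numbers over 302, 405 and 425 kb.

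Tnfrsf1a encodes TNF receptor 1 (chromosome 6, 125349723 to 125362483, plus strand). C/EBPα peaks numbered 3 and 3 in WT and 3 and 2 in KO, a mean difference of -0.50 (exact permutation p = 1.0). The region over the start (125349518 to 125350035) was kept, with peaks of 390 and 400 bp in WT and 500 and 462 bp in KO. Their percentiles were 49.5 and 56.4 against 69.2 and 66.3, so both KO values lay above both WT values. The opposite order held 31356 bp downstream at an end of the neighbouring gene Plekhg6 (125381079 to 125381684): percentiles of 87.9 and 79.8 in WT and 10.9 and 21.2 in KO, from widths of 577 and 513 bp against 304 and 314 bp. Among the 19 kept regions this was the widest gap between the genotypes. A mixed region 1624 bp into the gene was absent in KO library 2. The 1 ARID1A peak lay 14156 bp downstream of the start, on no C/EBPα region. Of its 228 bp, H3K4me2 took in 228, 228 and 50 bp in WT libraries 1 to 3 and 115, 228 and 5 bp in KO libraries 1 to 3.

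The promoter of Tnfrsf1a is shown because C/EBPα peaks of all 4 lists reach into it from the start (RefSeq, GRCm38.p6, chr6:125349473-125349722, plus strand, 5′ to 3′). Capitals mark a match to the STAT motif TTCNNNGAA, which reads the same on both strands.
Tnfrsf1a promoter: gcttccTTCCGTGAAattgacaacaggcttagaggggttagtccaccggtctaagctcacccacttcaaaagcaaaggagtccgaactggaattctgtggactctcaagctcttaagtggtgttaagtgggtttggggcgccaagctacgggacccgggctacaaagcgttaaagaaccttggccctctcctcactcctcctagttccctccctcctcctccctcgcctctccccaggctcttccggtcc
The match runs from 244 to 236 bases before the start and lies upstream of the first base of the C/EBPα region. Of all promoters of that length, 7.02% hold a match.

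**Figure D2:**
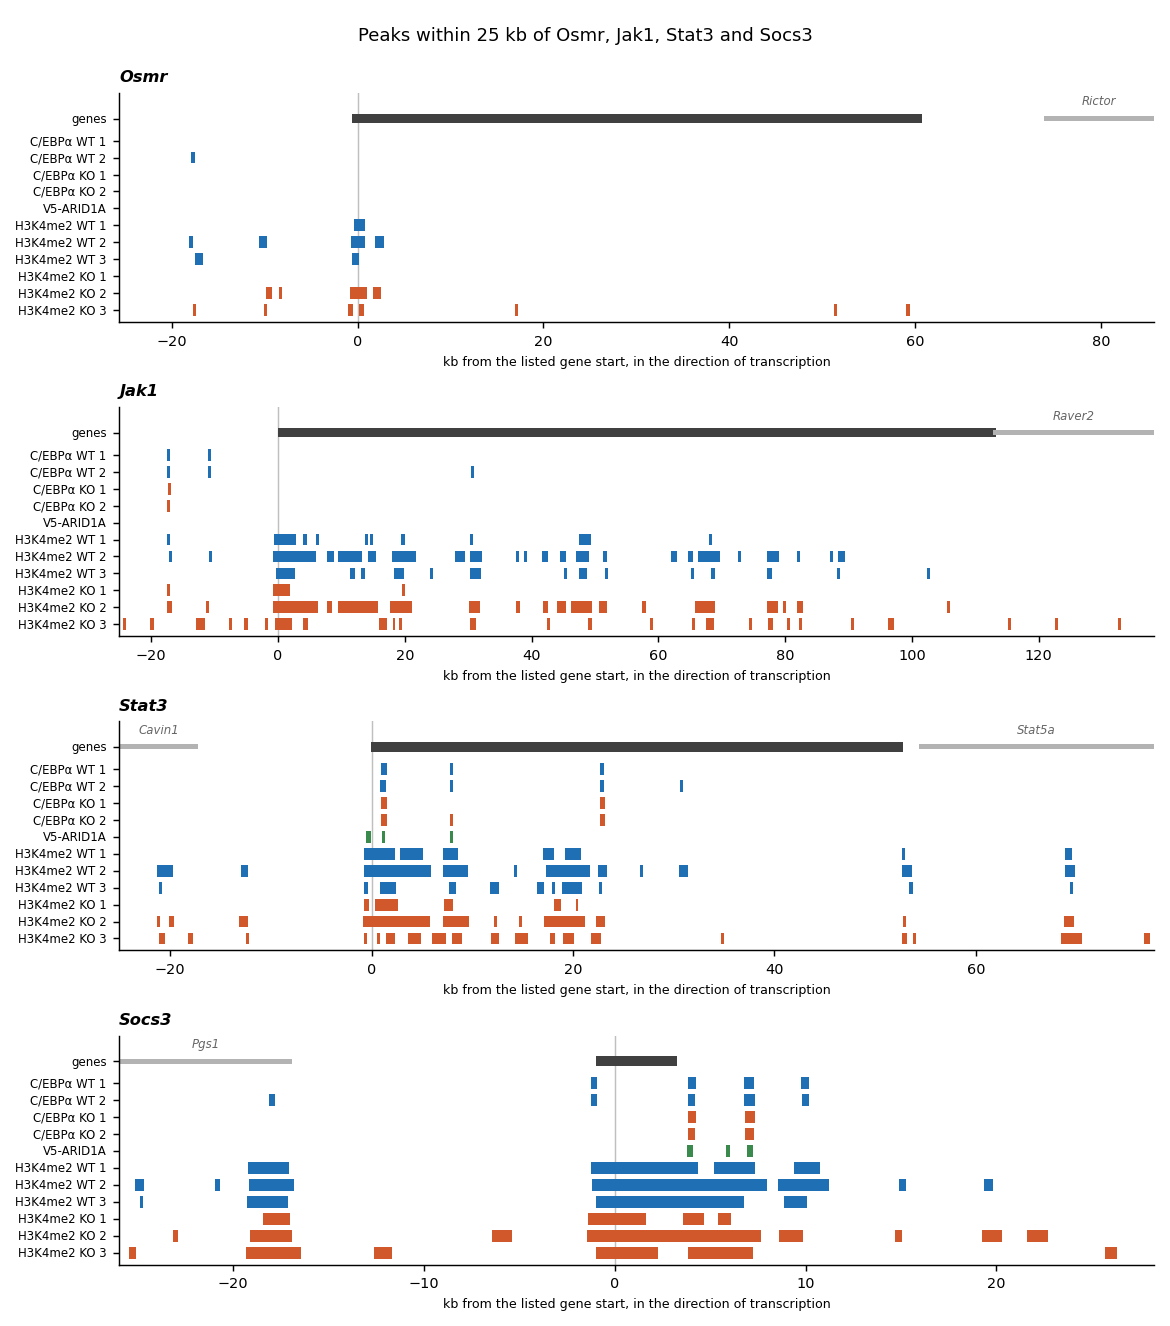
Peaks in the windows of Osmr, Jak1, Stat3 and Socs3, with 1 row for each of the 11 lists (blue WT, orange KO, green V5-ARID1A) against distance in kb from the listed gene start in the direction of transcription. At Socs3 the C/EBPα marks near -0.9 and +9.8 kb, and at Jak1 the mark near -10.6 kb, appear in both WT rows and neither KO row.

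Jak1 encodes a tyrosine kinase bound to gp130 (chromosome 4, 101151974 to 101265282, minus strand). Its window held 2 and 3 C/EBPα peaks in the WT libraries and 1 and 1 in KO, so every KO count was below every WT count. The mean difference was -1.5 (exact two-sided permutation p = 0.333, the smallest that 2 against 2 libraries allow, adjusted p = 1.0). The lost region lay 10647 bp upstream of the start (101275870 to 101276298), with peaks of 356 and 429 bp at percentiles 35.2 and 64.2 in WT libraries 1 and 2. H3K4me2 touched it in WT library 2 and KO library 2. Between the neighbouring peaks around it, KO libraries 1 and 2 lack 4 and 8 peak numbers over 372 and 396 kb. A region 16994 bp upstream was kept, the remaining one was found in WT library 2 only, and 0 ARID1A peaks lay in the window.

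Stat3 encodes the transcription factor that IL-6 activates (chromosome 11, 100886806 to 100939594, minus strand). C/EBPα peaks numbered 3 and 4 in WT and 2 and 3 in KO, so 1 value was shared by the genotypes (mean difference -1.0, exact permutation p = 0.667). The kept region 870 bp into the gene (100937990 to 100938670) had peaks of 611, 612, 629 and 627 bp, at percentiles 90.4, 89.3, 85.1 and 87.0. It carried an ARID1A peak. A mixed region 7744 bp into the gene was absent in KO library 1 and carried another, and a further ARID1A peak (100939614 to 100940059) began 74 bp upstream of the start with no C/EBPα region under it. H3K4me2 took in 446, 446 and 170 of the 446 bp of that promoter peak in WT and 235, 446 and 82 bp in KO.

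This Stat3 promoter ARID1A peak is the reason for showing the sequence under it (RefSeq, GRCm38.p6, chr11:100939595-100939790, minus strand, 5′ to 3′). The 196 bases begin 250 bases before the listed start and stop where a longer gene model begins, and capitals mark the C/EBP motif.
Stat3 promoter: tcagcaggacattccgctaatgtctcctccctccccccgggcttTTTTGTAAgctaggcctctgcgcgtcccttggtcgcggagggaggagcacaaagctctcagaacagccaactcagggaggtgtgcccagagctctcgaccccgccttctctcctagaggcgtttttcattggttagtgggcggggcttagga
The match, 206 to 199 bases before the start, lies under the ARID1A peak and under 0 C/EBPα regions.

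Socs3 encodes the feedback inhibitor that STAT3 induces (chromosome 11, 117966079 to 117970336, minus strand). Its window held 4 and 5 C/EBPα peaks in the WT libraries and 2 and 2 in KO, again with every KO count below every WT count. The mean difference was -2.50 peaks (exact two-sided permutation p = 0.333, the smallest possible, adjusted p = 1.0). With only peaks at least 395 bp wide it was -0.5 at Socs3 and -1 at Jak1 (exact permutation p = 1.0 and 0.667), and with windows of 50 kb it was -2.5 at Socs3 and -3.5 at Jak1. Of all gene windows, 8.75% had every KO count below every WT count and 3.71% had every KO count above, against 2 and 0 of the 8. These sets are unlike, since all gene windows include those without a C/EBPα peak, which can have neither order. Each of the 8 windows held a peak in some list. By the exact permutation test 0 of the 21887 windows reached an unadjusted p below 0.05, which 2 against 2 libraries cannot.

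Socs3 had 5 C/EBPα regions: 2 kept, 2 lost and 1 found in WT library 2 only. One lost region lay 930 bp upstream of the listed start, across the outer end of the longest gene model (117970296 to 117970622). Its peaks were narrow, 327 and 309 bp, at percentiles 21.8 and 20.5. H3K4me2 took in 295, 239 and 41 of its 327 bp in WT libraries 1 to 3 and 327, 327 and 57 bp in KO libraries 1 to 3. The second lay 6486 bp beyond the other end of the gene (117959190 to 117959593), with peaks of 404 and 358 bp at percentiles 54.7 and 41.4, and H3K4me2 touched it in 3 WT lists and 1 KO list. In each KO list exactly 1 number is missing in the 26.0 kb around this second region. When each list was cut to its 16178 widest peaks the region 930 bp upstream became mixed, and with only peaks at least 395 bp wide none of the 3 regions lost at Jak1 and Socs3 was called lost, because that cut removes WT peaks too. Under that width cut 2 other regions were called lost, 1 at Il6ra (89905533 to 89906004) and the Plekhg6 region in the window of Tnfrsf1a, and with the 16178 widest peaks 2 of the original 3 remained.

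Between the 2 lost regions lay 2 kept ones, both with an ARID1A peak and both downstream of the gene. The nearer, 535 bp beyond the gene (117965108 to 117965544), had percentiles of 63.9 and 53.0 in WT and 53.4 and 47.3 in KO, which overlap. The farther, 3479 bp beyond the gene (117962019 to 117962600), had 84.9 and 87.1 in WT and 70.7 and 67.8 in KO, with both KO values lower. Another ARID1A peak (117963309 to 117963526) lay between them with no C/EBPα region.

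The Socs3 promoter holds a match to the STAT motif, the kind of site through which STAT3 is known to act on this gene, and it is shown with its flanks (RefSeq, GRCm38.p6, chr11:117969502-117969530, minus strand, 5′ to 3′, motif in capitals).
Socs3 STAT motif: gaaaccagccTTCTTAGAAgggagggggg
The motif begins 154 bases before the listed start, inside the H3K4me2 peak at the start in all 6 lists and outside every C/EBPα region and ARID1A peak. A longer gene model of Socs3 spans this stretch. The motif of NF-κB, the factor that TNF activates, had 0 matches in the promoters of the 8 genes and is found in 7.25% of all promoters.

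Per length of window, the WT libraries placed Socs3 highest with 7.37 and 9.22 C/EBPα peaks per 100 kb, then Il6ra with 6.39 and 7.46. Tnfrsf1a had 4.78 and 4.78 peaks per 100 kb, Lifr 3.82 and 5.10, Stat3 2.92 and 3.89 and Il6st 3.23 and 3.23. Jak1 had 1.22 and 1.84 per 100 kb and Osmr 0 and 0.898. Neighbours in this order overlapped between their 2 libraries, except Il6ra above Tnfrsf1a, Il6st above Jak1 and Jak1 above Osmr. In KO the order opened with Il6ra at 7.46 and 6.39 per 100 kb, and Socs3 had 3.69 and 3.69, within the range of Tnfrsf1a at 4.78 and 3.19. The median over all gene windows was 0 in every list but WT library 2, where it was 0.863, and the medians over the 8 genes were 3.53 and 4.34 in WT and 2.92 and 3.21 in KO.

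**Figure D3:**
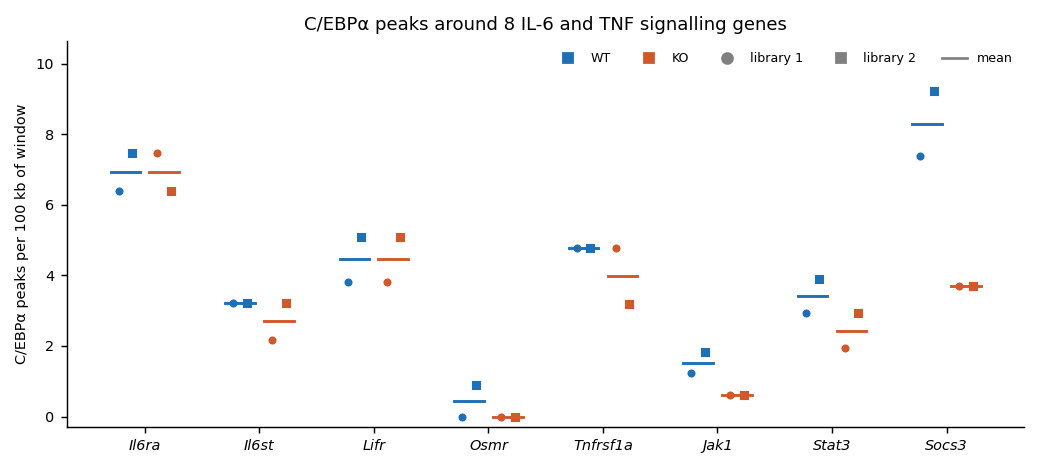
C/EBPα peaks per 100 kb of window for the 8 genes, with a circle for library 1, a square for library 2 and a bar for the mean of each genotype (blue WT, orange KO). The KO marks of Socs3 and Jak1 sit below both of their WT marks, and the other 6 genes overlap or share a value.

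Kept regions could still differ in width. Width percentiles were lower in both KO lists than in both WT lists at 8 of the 19 kept regions (27.8% of all kept regions) and higher in both at 2 (14.7%). Those 8 lay at Il6ra, Il6st, Lifr, Tnfrsf1a, Stat3 and Socs3, and the 2 were the Tnfrsf1a start and the Lifr region 8872 bp from its start. A percentile ranks a peak against its own list, and median widths were 391 and 381 bp in the WT lists and 421 and 396 bp in KO. A lower percentile is therefore not always a narrower peak. The Stat3 region 870 bp into the gene, which is among the 8, had 611 and 612 bp in WT and 629 and 627 bp in KO. At the Plekhg6 region both the percentiles and the widths in bp were lower in KO. At Il6ra the region 2726 bp into the gene had 92.2 and 89.7 in WT and 39.6 and 83.4 in KO. The largest gap was the Plekhg6 region given above, while at Lifr the region 30249 bp from the start had 97.9 and 93.4 in WT and 87.5 and 84.2 in KO. The widest Lifr region, at 98.7 and 99.0 in WT, had 97.4 and 98.2 in KO, a difference of under 2 percentile points.

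**Figure D4:**
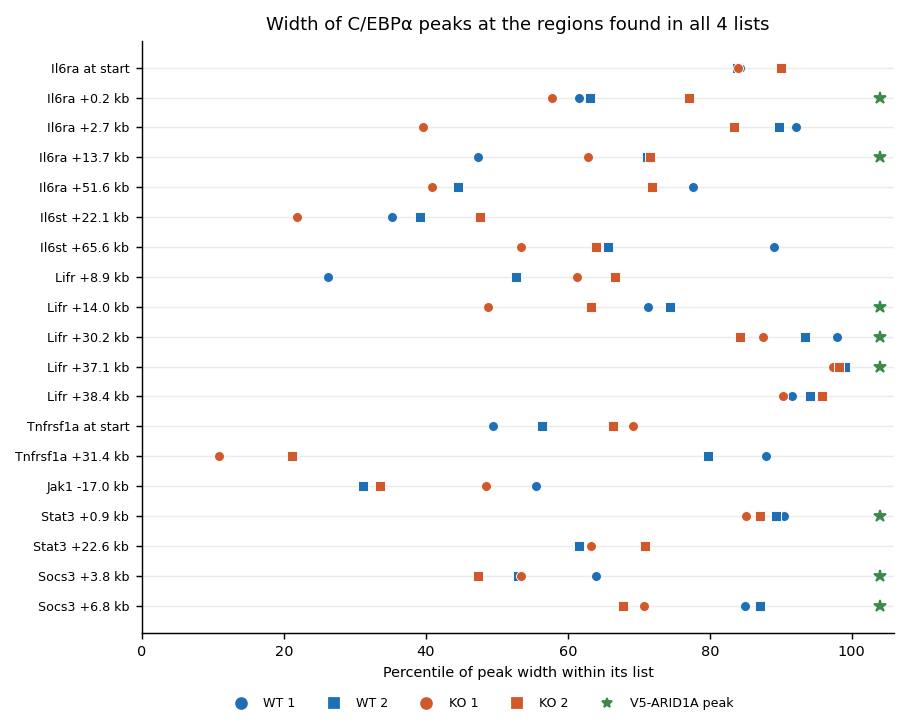
Percentile of C/EBPα peak width within its list at the 19 kept regions, named by gene and distance from the listed start (circles library 1, squares library 2, blue WT, orange KO, green star an ARID1A peak in the region). In 8 rows both KO marks lie left of both WT marks, in 2 the reverse, and the row Tnfrsf1a +31.4 kb has WT at 87.9 and 79.8 and KO at 10.9 and 21.2.

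ARID1A peaks were found in 6 of the 8 windows (20.2% of all gene windows), all but Osmr and Jak1. There were 18 in all: 5 each at Il6ra and Lifr, 3 each at Stat3 and Socs3 and 1 each at Il6st and Tnfrsf1a. Per 100 kb these were 5.33 at Il6ra, 3.19 at Lifr, 2.92 at Stat3, 5.53 at Socs3, 1.08 at Il6st and 1.59 at Tnfrsf1a, where the median gene window has 0. Of the 18 peaks 9 lay on kept C/EBPα regions, 3 on mixed, 0 on lost and 6 on none, so 66.7% touched a C/EBPα region. Of all 5726 ARID1A peaks, 3650 lay on kept regions and 982 on none, and 82.9% touched a region. The genome-wide split between mixed and lost is not given. The 8 windows hold only 3 lost regions, so the 0 on lost regions says little. Read the other way, 8 of the 19 kept regions carried an ARID1A peak (30.9% of all kept regions). With 1 library these counts have no replicate check, and among ARID1A peaks at least as wide as the list's median 9 of the 18 were left.

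H3K4me2 accompanied most of these sites. It touched 17, 17 and 15 of the 18 ARID1A peaks in WT libraries 1 to 3 and 11, 17 and 16 in KO libraries 1 to 3. Over the whole list the shares were 73.5%, 88.8% and 62.6% in WT and 41.7%, 82.9% and 53.0% in KO, with KO library 1 lowest in both sets. Of the 34 C/EBPα regions, 16 were touched by H3K4me2 in all 6 lists, beside 26.7% of all regions, and 7 had at least 50% of their length in it in all 6. The single lists touched 29, 33 and 25 of the 34 in WT and 18, 31 and 26 in KO, which is 85.3%, 97.1% and 73.5%, and 52.9%, 91.2% and 76.5%. Over all C/EBPα regions the shares were 57.7%, 73.5% and 54.7% in WT and 35.8%, 65.1% and 47.9% in KO.

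The starts of the genes were marked in both genotypes. An H3K4me2 peak lay within 1 kb of a listed start in all 6 lists at 7 of the 8 genes, and at Osmr in 5, KO library 1 having 0 H3K4me2 peaks anywhere in the window. At Lifr this was the first listed start, and the second had 0 within 1 kb in KO library 3. Counted at gene ends instead, 6 of the 8 and 11169 of all 21887 genes had H3K4me2 within 1 kb in all 6 lists. At Socs3 the start peak stood at percentiles 84.3, 84.6 and 77.0 of −log10 q in WT and 87.8, 81.5 and 94.5 in KO, ranks by the authors' own values within each list. At Il6st it stood at 71.6, 81.1 and 84.3 in WT and 36.1, 78.9 and 99.6 in KO. The genotypes overlapped at both. C/EBPα lay within 1 kb of the start in all 4 lists at Il6ra, Stat3 and Tnfrsf1a, in 3 at Il6st, in both WT lists alone at Socs3, and in none at Lifr, Osmr and Jak1. ARID1A lay there at Il6ra and Stat3. For these C/EBPα and ARID1A counts at starts no share over all genes is given.

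The length of a window inside H3K4me2 peaks was measured in every library. At Il6ra it was 15.7, 23.4 and 14.1 kb in WT libraries 1 to 3 and 6.82, 22.8 and 11.4 kb in KO libraries 1 to 3. At Tnfrsf1a it was 9.91, 16.7 and 10.7 kb in WT and 5.43, 13.9 and 7.79 kb in KO. At Lifr it was 16.2, 29.6 and 16.4 kb in WT and 7.99, 29.3 and 12.5 kb in KO. KO library 1 was the lowest at these 3 receptors, but the genotypes overlapped, since KO library 2 exceeded WT libraries 1 and 3. Mean differences were -4.05, -3.40 and -4.17 kb (exact two-sided permutation p = 0.40, 0.40 and 0.50). Without KO library 1 it was -0.614 kb at Il6ra and -1.6 kb at Tnfrsf1a, without WT library 2 it was -1.22 and -1.27 kb, and without KO library 2 it was -8.63 and -5.84 kb.

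Il6st had 6.0, 14.2 and 6.01 kb in WT and 3.67, 13.3 and 5.28 kb in KO. Osmr had 1.13, 3.75 and 1.61 kb in WT and 0, 3.61 and 2.15 kb in KO, the shortest of the 8. Socs3, the shortest gene, had 11.2, 15.6 and 11.2 kb in WT and 6.15, 16.5 and 11.6 kb in KO. KO library 1 was again the lowest at each of these. The mean differences were -1.30 kb at Il6st, -0.241 kb at Osmr and -1.27 kb at Socs3 (exact permutation p = 0.50, 0.900 and 1.0).

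Jak1 had 7.93, 35.3 and 11.1 kb in WT and 3.14, 35.0 and 16.4 kb in KO, so WT library 2 and KO library 2 stood well above the other 4. Stat3 had 10.2, 19.8 and 7.28 kb in WT and 4.55, 17.6 and 14.7 kb in KO. Their mean differences were 0.060 and -0.136 kb, far inside standard deviations of 15.0 and 16.0 kb for Jak1 and 6.57 and 6.88 kb for Stat3 (n = 3 per genotype, exact permutation p = 1.0 for both). At both genes KO library 3, the list of many short peaks, was above WT library 3.

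At each of the 8 genes the difference between the genotype means was smaller than the SD within either genotype. KO library 1 was lowest and WT library 2 and KO library 2 were the longest at all 8. Summed over all gene windows, which share this order at its ends, H3K4me2 covered 89500, 155000 and 91800 kb in WT and 56200, 149000 and 133000 kb in KO. No window of the 8 had every KO length below every WT length (0.649% of all windows) or above (0.0457%), all adjusted p were 1.0, and 0 of 21887 windows reached an unadjusted p below 0.05 in the exact permutation test, whose smallest p with 3 against 3 is 0.1. Without WT library 2 the mean difference was 1.43 kb at Il6st, 0.25 at Lifr, 0.553 at Osmr, 3.56 at Stat3 and 0.206 at Socs3, and without KO library 1 it was 0.579, 0.122, 0.72, 3.74 and 1.37 kb, each now above 0. At Jak1 it was -5.04 kb without WT library 1, -3.44 without WT library 3 and -8.35 without KO library 2. Per length of window, Osmr in WT (1.01%, 3.37% and 1.44%) lay below all 3 WT values of Il6st (6.47%, 15.3% and 6.48%), while the other 7 genes overlapped with their neighbours in order, up to Socs3 at 20.7%, 28.8% and 20.6%.

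**Figure D5:**
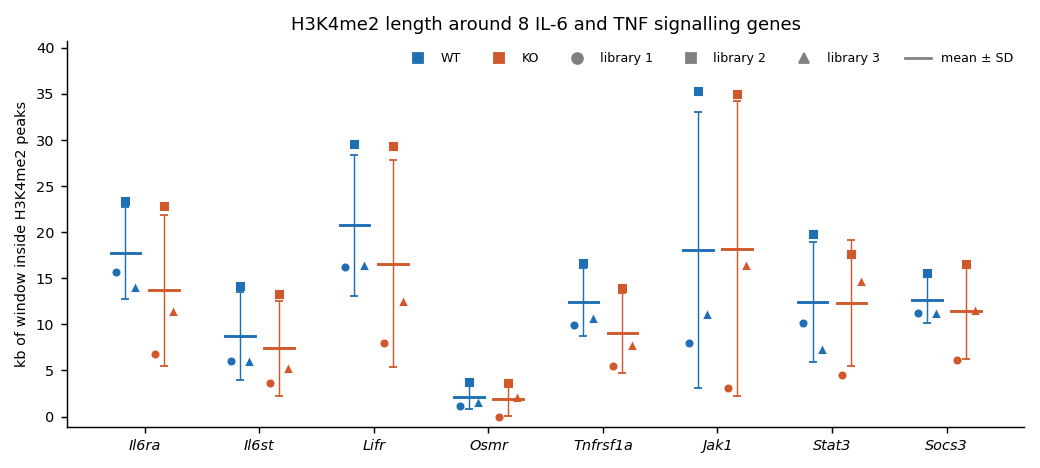
Kilobases of each gene's window inside H3K4me2 peaks, with a circle, square and triangle for libraries 1, 2 and 3 and bars for mean ± SD (n = 3 per genotype, blue WT, orange KO). KO library 1 is the lowest point at every gene and the squares of library 2 the highest.

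In bins of 1 kb, a bin being marked when at least 500 bp lie in peaks, 199 bins of the 8 windows were marked in some list and 22 in all 6 (11.8% of such bins genome-wide). Lost bins, marked in 3 WT lists and in 0 KO lists, numbered 0 of 57 (2.01%), and gained bins 0 of 23 (0.175%). The lost count rests on KO library 2: without it, 16 of the 57 bins had no mark in the other KO lists, 5 at Lifr, 3 each at Il6ra and Jak1, 2 at Socs3 and 1 each at Il6st, Osmr and Tnfrsf1a, beside 17.3% of bins genome-wide in that setting. Without WT library 1 it was 2 of 74 bins (5.49% genome-wide), without WT library 3 it was 1 of 77 (4.01%) and without KO library 3 it was 2 of 57 (2.63%). Without WT library 2 (2.90%) or KO library 1 (2.2%) it was 0 of 57. The 22 kept bins were spread over 7 genes, with 6 at Socs3, 4 at Il6ra, 3 each at Jak1 and Tnfrsf1a, 2 each at Il6st, Lifr and Stat3, and 0 at Osmr.

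Other genes of the same pathways were taken from 3 lists. The list of gp130 and JAK-STAT genes, with ligands, kinases, STATs, SOCS proteins and phosphatases (31 genes), had 71 C/EBPα regions, of which 30 were kept, 10 of 45 lost (22.2%) and 1 of 35 gained (2.86%). The TNF and NF-κB list (40 genes), with adaptors, kinases, NF-κB subunits and inhibitors, had 103 regions, of which 51 were kept, 3 of 60 lost (5.0%) and 2 of 62 gained (3.23%). The list of IL-6 target genes (29 genes), mostly acute phase proteins, had 101 regions, of which 62 were kept, 6 of 76 lost (7.89%) and 3 of 68 gained (4.41%). ARID1A peaks lay in the windows of 11 of 31, 12 of 40 and 21 of 29 genes of the 3 lists, beside 20.2% of all gene windows. Neighbouring genes of a list, such as Orm1 and Orm2, share much of their windows and so can count the same peaks. The genome-wide lost and gained shares are those given above, and the lists were not tested against any of these shares.

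Within 1 kb of a gene end, a lost region was found at 1 of the 8 genes, Socs3, and at 0, 0 and 1 genes of the 3 lists, beside 0.845% of all genes. All genes here include those without a C/EBPα peak nearby. A gained region was found there at 0 of the 8 and at 1, 0 and 0 genes of the lists, beside 1.56%. Ptpn2, which encodes a phosphatase that acts on JAK and STAT proteins, had a gained region at a gene end (chromosome 18, mean width percentile 32.8), with 2 and 2 C/EBPα peaks in its window in WT and 3 and 2 in KO. Orm2, an acute phase protein gene, had 2 lost regions at its ends (chromosome 4, 63361483 to 63361941 and 63366228 to 63366558, mean width percentiles 52.9 and 21.9). Its window, shared in large part with Orm1, held 9 and 10 C/EBPα peaks in the WT libraries and 4 and 7 in KO, and since Orm1 and Orm2 are near-identical copies the placement of their peaks is uncertain. The TNF list had 0 such changes, and its genes with the most kept regions per 100 kb of window were Nfkbiz, which encodes an inhibitor-like NF-κB cofactor, with 6.44 per 100 kb, and Chuk, which encodes the kinase IKKα, with 4.75 per 100 kb. Chuk had 4 C/EBPα peaks in each of the 4 lists.

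The whole pattern of a window was also ranked. Each of its 11 values, per length, was turned into a percentile over all genes within its list. Il6ra stood at the 96.1 to 97.9 percentiles for C/EBPα and at 99.3 for ARID1A, Socs3 at 98.3 and 98.5 for C/EBPα in WT against 88.4 and 87.5 in KO, and Osmr at 25.6 to 50.4 for C/EBPα. The gene on another chromosome with the nearest pattern, by Euclidean distance over the 11 percentiles, was Cdc26 for Il6ra (distance 7.23), Ceacam1 for Il6st (15.3), Elk4 for Lifr (11.3) and Slc25a37 for Osmr (3.53). It was Itgb2 for Tnfrsf1a (9.63), Ctnnb1 for Jak1 (21.7), Ocln for Stat3 (14.3) and Slc25a25 for Socs3 (7.87). Jak1 thus had the most distant nearest gene of the 8 and Osmr the closest. Slc25a25 had 5 and 6 C/EBPα peaks in the WT libraries and 4 and 4 in KO, with 4 ARID1A peaks.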

How the data were processed

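ChIP-seq peak lists of 11 of the 21 samples were used, and 10 input samples were not used here. The tools in the submitters' processing notes are MACS2 2.0.10.20131216, HOMER, Picard and Bowtie2 2.2.3, with build mm10 and no roles stated. The C/EBPα and V5 lists as deposited hold peak positions and names alone. The deposited H3K4me2 lists also hold the authors' fold over local background, −log10 p, −log10 q and a score that restates −log10 q; these depend on depth and served only to rank or threshold peaks. Per the labels, the H3K4me2 libraries were made with another kit and instrument. Read depth per library is unknown, so no interval is given, and the number of peaks does not measure it.

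C/EBPα peaks sharing 1 bp were merged into regions. Width percentiles are within a list. Group means were compared by exact two-sided permutation over libraries for all 21887 genes, with Benjamini-Hochberg adjustment over all and a threshold of 0.05 (Python 3.11.15, numpy 2.4.6, pandas 2.3.3, scipy 1.17.1). The p-values measure only the spread between these samples, which may be technical. Motifs were searched on both strands of the 250 bases before each listed start. The scripts were tested on simulated data.

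The 8 genes and all gene lists were chosen with earlier results of these data known. Named besides the 8 are, per pathway list, up to 3 genes with a lost or gained region within 1 kb of a gene end, otherwise the 2 with the most kept regions per 100 kb, and for each of the 8 the gene of nearest pattern on another chromosome. The annotation used here gives gene bodies without exons, so exon or intron is not stated. Windows of 10 and 50 kb, stricter peak sets, other merging and marking rules and each library left out were tried.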

Additional observations from a re-analysis of the deposited data

How the results depend on the processing

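Over all settings there were 176 differences between genotypes at the 8 genes. These include the main values and those from pairing libraries by number, which equal the main values by construction and cannot change. Of the 176, 18 changed direction, all of them H3K4me2 lengths. The C/EBPα differences at Il6ra and Lifr were 0 in the main setting, so no change of direction could be counted for them. Of the C/EBPα differences, those at Il6ra and Lifr, which were 0, ran from -1 to 0.5 and from -1 to 1 peaks, and those at Il6st, Osmr, Stat3 and Tnfrsf1a came to 0 in at least 1 setting. Those at Socs3 and Jak1 ran from -3 to -0.5 and from -3.5 to -0.5 peaks. Lost C/EBPα regions numbered 3 at 25 kb, 2 with windows of 10 kb, with equal numbers of the widest peaks or with only peaks above the pooled median width, 6 with windows of 50 kb, and 3 to 7 with a library left out. With a library left out the count cannot fall below 3, since the rule is only loosened. Gained regions numbered 1 with equal numbers of the widest peaks, 1 with only peaks above the pooled median width, and 0 to 2 with a library left out. That width cut left 10 kept regions, because fewer peaks entered. Lost H3K4me2 bins numbered 1 with the stricter −log10 q, 1 when 1 bp marks a bin, and 0 to 16 with a library left out, and gained bins 0 to 1. Kept bins numbered 11 with the stricter −log10 q, 12 with equal numbers of the strongest peaks and 55 when 1 bp marks a bin. ARID1A peaks numbered 9 with only the wider peaks. The KO minus WT difference in H3K4me2 length changed sign with windows of 10 kb at Osmr (0.138 kb) and Jak1 (-0.819 kb), with the stricter −log10 q at Jak1 (-0.917 kb), and with equal numbers of the strongest peaks at Jak1 (-0.326 kb) and Stat3 (1.30 kb); the cause was not tested. With a library left out the difference ran from -8.63 to -0.614 kb at Il6ra, from -5.84 to -1.27 kb at Tnfrsf1a, from -8.35 to 8.66 kb at Jak1, from -4.26 to 1.43 kb at Il6st, from -10.5 to 0.25 kb at Lifr, from -1.09 to 0.72 kb at Osmr, from -2.81 to 3.74 kb at Stat3 and from -3.83 to 1.37 kb at Socs3.

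Whether equal library numbers pair the samples was checked by the correlation of their deviations. It was 0.15 at both C/EBPα numbers, which with 2 libraries per genotype are the same value by construction. At the H3K4me2 numbers it was 0.59, 0.58 and 0.05, and between unequal H3K4me2 numbers it ran from -0.63 to 0.26. The labels do not say whether equal numbers mark shared samples, and these values do not settle it. Pairing the libraries by number, called the replicate block, leaves the differences unchanged by construction. For -2.50 peaks at Socs3 and -1.5 at Jak1 the exact sign-flip p was 0.50 at both, the smallest for 2 pairs. For H3K4me2 at Il6ra, Il6st, Lifr and Tnfrsf1a the sign-flip p was 0.25, the smallest for 3 pairs. With so few pairs the block could change no call at 0.05. Depth is unknown and the C/EBPα lists were shortened before deposit, which limits every statement on a missing peak.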
